A study of Rattus norvegicus with 18 samples.

Results

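In rat visceral white adipose tissue (vWAT), 127 of the 32883 genes counted met a rule for a lower level in untreated spontaneously hypertensive rats (SHRs). The rule set untreated SHRs against both other groups of the study, and these 127 genes are described here. They were chosen by their levels in CPM, a gene's count divided by the total count of its library and scaled so that each library sums to 1000000. The median of the normotensive group and the median of the treated SHRs each had to be at least 1.6 times the median of the untreated SHRs and at least 2 CPM. Genes of chromosome 20 and of the mitochondrial genome were left out, which removed 9 genes. A further 3 genes were left out because every treated SHR lay above every untreated SHR. Of the genes on the remaining chromosomes, 10204 had medians of at least 2 CPM in both the normotensive and the treated group, and these serve as the background. Since both contrasts with untreated SHRs selected the members, the values of these contrasts are given as a description, with no test.

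The normotensive group was 6 Wistar-Kyoto (WKY) rats on water. The untreated group was 6 SHRs that drank tap water (SHR-Water). The treated group was 6 SHRs whose water held trimethylamine oxide (TMAO) at 1 g/L (SHR-TMAO). All rats were male, took a standard laboratory diet and were kept 3 to a cage. The SHRs were 7 to 8 weeks old when they were randomly assigned to water or TMAO, and tissue was taken after 22 weeks. The age of the WKY rats is not given in the sources used here. SHRs differ from WKY rats across the genome as well as in blood pressure, so strain and hypertension cannot be told apart in the contrast of SHR-Water with WKY.

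Visceral white adipose tissue stores triglyceride in large adipocytes and also holds macrophages, lymphocytes, blood vessels, fibroblasts and residual blood. The SHR is an inbred strain derived from Wistar-Kyoto stock that develops high blood pressure as it matures, and its adipose tissue and lipid handling have long been studied beside its blood pressure. TMAO is made in the liver from trimethylamine that gut bacteria release from choline and carnitine, and it circulates in blood. In bulk tissue, fewer cells of a type and less RNA per cell cannot be told apart. The table identifies genes by Ensembl identifiers without symbols, so the members are described by position in Rnor_6.0 (1-based), exon structure and level, and the adipose tissue itself was not checked against marker genes here.

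The libraries held between 10774133 and 18874161 counts, so that 1 CPM stood for between 10.8 and 18.9 counts. Genes of the mitochondrial genome ranged over 15.5% to 28.5% of the counts in SHR-Water, 7.08% to 20.6% in WKY and 11.1% to 20.8% in SHR-TMAO. The libraries also differed in how the level depended on the length of a gene, and this is given beside the results it touches.

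The members formed a set of modest ratios with a long tail. The smaller of a member's 2 ratios (WKY over SHR-Water and SHR-TMAO over SHR-Water) had a median of 1.75 over the 127 genes. It was under 2 in 96 members, 2 or more in 31 and 3 or more in 7. The median level of a member was 15.5 CPM in SHR-Water, 36.9 CPM in WKY and 27.7 CPM in SHR-TMAO. The median log2 difference of SHR-Water was -1.06 from WKY and -0.89 from SHR-TMAO, where the background genes stood at 0.05 and 0.11. In 39 members the WKY median was 100 CPM or more, and in 23 the SHR-Water median was under 2 CPM. By group medians, 83 members were higher in WKY than in SHR-TMAO and 44 were higher in SHR-TMAO.

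Most members did not separate WKY from SHR-Water completely from rat to rat. In 29 of the 127 members (22.8%) every WKY rat lay above every SHR-Water rat, a pattern that 2.62% of the background genes had, and the rule selected on this contrast. The rule left out genes with all 6 SHR-TMAO rats above every SHR-Water rat, so 0 members had this. It set no such condition on WKY, so these counts cannot be compared between SHR-TMAO and WKY. Above every SHR-Water rat were 5 SHR-TMAO rats in 32 members, 4 rats in 30, 3 rats in 29, 2 rats in 15, 1 rat in 16 and 0 rats in 5. In the 32 members with 5 rats above, the remaining rat was SHR-TMAO replicate 1 in 31 and SHR-TMAO replicate 6 in the other one. The rule selected on the contrast of SHR-TMAO with SHR-Water too. The same counts over the background genes were not taken, so these counts describe the members only.

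The members' levels differed between the rats of each group. The median CPM over the 127 members was 22.5, 13.4, 22.6, 13.1, 11.9 and 17.1 in SHR-Water replicates 1 to 6. It was 39.2, 27.9, 34.2, 49.5, 39.8 and 35.2 in WKY replicates 1 to 6, so no SHR-Water rat reached the lowest WKY rat. It was 18.3, 26.6, 25.6, 37.8, 35.7 and 28.0 in SHR-TMAO replicates 1 to 6, and SHR-TMAO replicate 1 lay within the range of SHR-Water. SHR-Water replicate 2 was the lowest of its group in 55 members, and replicates 4 and 5 in 25 each. SHR-Water replicates 1, 6 and 3 were the highest of that group in 43, 40 and 28 members. SHR-TMAO replicate 1 was the lowest of its group in 91 members and replicate 4 the highest in 79, while in WKY replicate 2 was lowest in 72 and replicate 4 highest in 70. Together the members took between 0.71% and 1.34% of the counts in SHR-Water, between 1.32% and 3.05% in WKY and between 1.02% and 2.37% in SHR-TMAO.

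**Figure D1:**
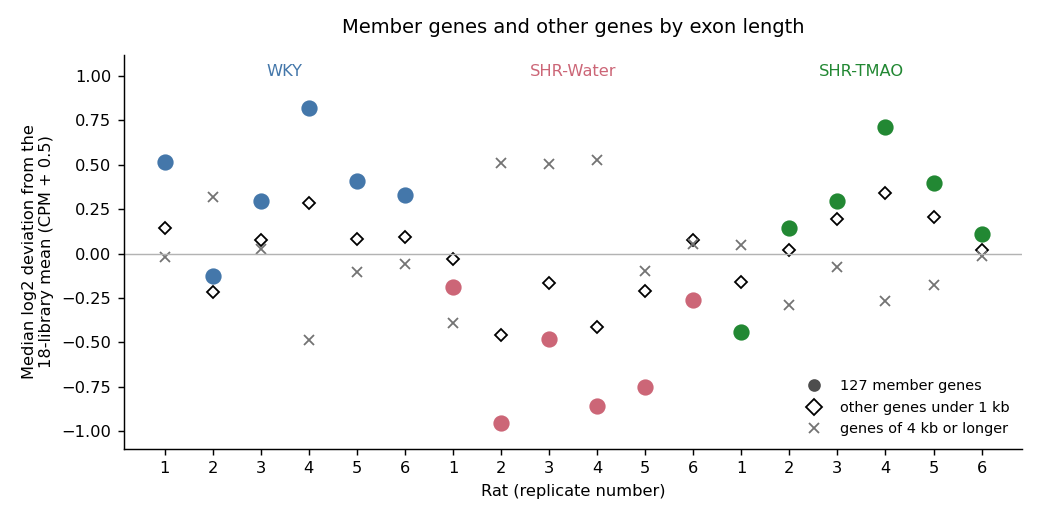
Each filled point is 1 rat and gives the median, over the 127 members, of the log2 deviation of CPM + 0.5 from the mean of the 18 libraries; open diamonds give the same for 996 other genes with under 1 kb of exon and crosses for 2161 genes of 4 kb or longer. The members lie below 0 in every SHR-Water rat, and also in WKY replicate 2 and SHR-TMAO replicate 1.

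The other short genes moved with the members from library to library. Over 996 other background genes with under 1 kb of exon, the median log2 deviation from the mean of the 18 libraries was -0.20 ± 0.21 in SHR-Water, 0.08 ± 0.16 in WKY and 0.10 ± 0.18 in SHR-TMAO (SD over 6 rats each). For the 2161 genes of 4 kb or longer it was 0.18 ± 0.39, -0.05 ± 0.26 and -0.13 ± 0.14 in the same order. The members with 1 kb or more of exon deviated by -0.69 ± 0.33 in SHR-Water, 0.50 ± 0.23 in WKY and 0.15 ± 0.37 in SHR-TMAO. The part of this length trend in the level of a single member was not tested, but the rule was applied again after the trend was removed, as given below.

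Of the 7 members whose smaller ratio was 3 or more, 6 were high in some rats of every group and several-fold lower in others. A gene was counted as wide within every group where its highest rat was at least 5-fold its lowest rat in each of the 3 groups (after adding 0.5 CPM), and 10 of 127 members (7.87%) were so, beside 0.578% of the background genes. Their group medians therefore turned on how many of the 6 rats were in the high state, and group means gave other ratios. With group means in place of medians in the rule, 121 genes met it, and 74 of the 127 members were among them. Only 10 members were wide, so members that were not wide were lost as well.

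The highest-ranked member, a gene of chromosome 9 (44483875 to 44571331, plus strand, 2930 exon bases in 9 exon blocks), showed this in full. Its level was 9.32, 11.3, 13.5, 1.05, 8.68 and 16.8 CPM in WKY replicates 1 to 6. It was 0.638, 0.183, 0.469, 8.11, 17.0 and 0.317 CPM in SHR-Water replicates 1 to 6. It was 7.46, 11.7, 1.31, 0.665, 17.1 and 18.7 CPM in SHR-TMAO replicates 1 to 6. At 5 CPM or more were thus 5 WKY, 2 SHR-Water and 4 SHR-TMAO rats, and the high SHR-Water rats were as high as the high rats of the other groups. The medians of 10.3, 0.553 and 9.56 CPM gave ratios of 18.6 and 17.3, whereas the mean level per length was 1.52 ± 2.34 FPKM in SHR-Water, 3.44 ± 1.82 in WKY and 3.24 ± 2.63 in SHR-TMAO (FPKM is CPM divided by the exon length in kb; SD over 6 rats each). The lowest value in SHR-Water rested on 3 counts.

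The second-ranked member, a gene of chromosome 3 (171092946 to 171134655, minus strand, 693 exon bases in 9 exon blocks), was at 5 CPM or more in 4 WKY rats, 1 SHR-Water rat and 3 SHR-TMAO rats. In SHR-Water, 5 rats were between 0.0619 and 0.634 CPM and replicate 5 was at 9.84 CPM. In WKY, replicates 5 and 6 were at 0.183 and 0.574 CPM and the other 4 rats between 6.92 and 11.4 CPM. Its lowest counts were 1 in SHR-Water, 3 in WKY and 5 in SHR-TMAO, so the low state was close to the limit of these libraries.

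Another pair of chromosome 3 members behaved alike in kind, though with other rats in the high state. The gene at 14588870 to 14591974 (plus strand, 8 exon blocks) was at 5 CPM or more in 3 WKY, 2 SHR-Water and 4 SHR-TMAO rats, with medians of 3.47, 0.50 and 11.6 CPM. The gene at 4869795 to 4872632 (minus strand, 9 exon blocks) was at that level in 4, 1 and 3 rats, with medians of 7.96, 1.03 and 6.33 CPM. SHR-Water replicates 2 and 3 were the high rats of the former, at 9.54 and 5.02 CPM. SHR-Water replicate 5 was the high rat of the latter, at 11.0 CPM. On chromosome 9, the gene at 90880614 to 90908852 (plus strand, 12 exon blocks) had medians of 7.97, 2.45 and 15.9 CPM, and its highest SHR-Water rat, replicate 2, was at 25.8 CPM beside highest values of 25.4 CPM in WKY and 42.5 CPM in SHR-TMAO.

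**Figure D2:**
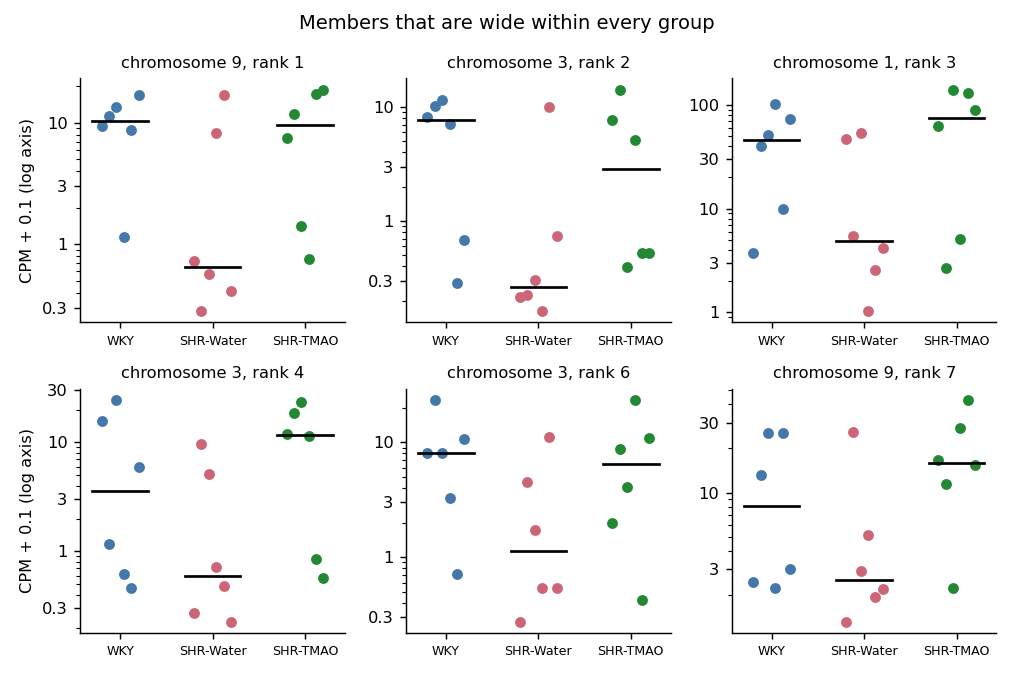
Each panel is 1 of the 6 highest-ranked members that are wide within every group, with 1 point per rat (CPM + 0.1, log axis) and a bar at the group median. In each panel at least 1 SHR-Water rat is as high as rats of the other groups, and at least 1 WKY and 1 SHR-TMAO rat are near the low SHR-Water rats.

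The remaining member of ratio 3 or more, ranked 5, was low in every SHR-Water rat. This chromosome 2 gene (210685197 to 210688272, plus strand, 958 exon bases in 8 exon blocks) ranged from 5.39 to 17.1 CPM in WKY (median 11.5) and from 0.0619 to 0.696 CPM in SHR-Water (median 0.351). In SHR-TMAO it was at 0.336, 16.1, 14.0, 0.604, 3.90 and 0.477 CPM in replicates 1 to 6 (median 2.25). Every WKY rat was thus above every SHR-Water rat, while 3 SHR-TMAO rats were above them and 3 within their range. The SHR-Water values rested on between 1 and 12 counts. The ratios over SHR-Water were 32.7 for WKY and 6.42 for SHR-TMAO. The SHR-TMAO median was close to the 2 CPM that the rule asked for. With the length trend removed the gene did not meet the rule. On that scale 59 members passed both ratios and 58 met the rule. Which condition this gene failed was not tested.

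On chromosome 1, members that overlap on opposite strands shared the same high and low rats in WKY and SHR-TMAO, and less so in SHR-Water. The minus-strand gene (87190381 to 87191588, 778 exon bases in 4 exon blocks) was at 3.65, 40.3, 51.3, 103, 9.90 and 73.5 CPM in WKY replicates 1 to 6. The plus-strand gene (87180624 to 87191185, 1747 exon bases in 8 exon blocks) was at 4.57, 37.2, 47.2, 96.3, 12 and 67.7 CPM in the same rats. In SHR-TMAO both were low in replicates 2 and 4, at 2.59 and 4.95 CPM for the former and 2.72 and 8.34 CPM for the latter, and high in the other 4 rats. In SHR-Water the minus-strand gene had a median of 4.72 CPM and the plus-strand gene one of 20.2 CPM. Replicates 1 and 3 were the highest of that group for both. At 5 CPM or more were 3 SHR-Water rats for the minus-strand gene and 5 for the plus-strand gene. SHR-Water replicates 2, 4 and 6 were at 5.38, 0.928 and 4.06 CPM for the former and at 20.7, 10.8 and 19.7 CPM for the latter. Counting used the strand of the reads, and whether reads of one gene reached the other was not tested. In the 100 kb to either side stood 4 other background genes, with ratios of WKY over SHR-Water between 0.808 and 1.499 and of SHR-TMAO over SHR-Water between 0.466 and 1.33.

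From rank 8 on, most of the members described had graded rather than split levels. On chromosome 5, 3 adjacent minus-strand genes between 155246447 and 155264143, each of 3 exon blocks and between 1048 and 1090 exon bases, fell at ranks 9, 11 and 12. The first (155246447 to 155252003) ranged from 88.2 to 232 CPM in WKY (median 143), from 26.7 to 73.0 CPM in SHR-Water (median 39.2) and from 63.9 to 165 CPM in SHR-TMAO (median 96.8). The second (155255005 to 155258392) ranged from 108 to 374 CPM in WKY (median 175), from 37.3 to 105 CPM in SHR-Water (median 63.0) and from 78.3 to 283 CPM in SHR-TMAO (median 150). The third (155261250 to 155264143) ranged from 115 to 348 CPM in WKY (median 174), from 50.3 to 125 CPM in SHR-Water (median 72.7) and from 98.9 to 287 CPM in SHR-TMAO (median 169).

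The WKY rats lay above every SHR-Water rat in the first and second of these 3 genes and overlapped in the third. The rats kept nearly the same order in all 3: WKY replicate 4 and SHR-TMAO replicate 4 were the highest of their groups, WKY replicate 3 and SHR-TMAO replicate 1 the lowest, and SHR-Water replicate 1 the highest of its group. The 1 other background gene within 100 kb had ratios of 1.33 for WKY and 1.15 for SHR-TMAO over SHR-Water. With the length trend removed the 3 genes still met the rule, with medians of 137, 41.0 and 93.1 CPM, then 168, 63.5 and 148 CPM, then 165, 76.4 and 168 CPM in WKY, SHR-Water and SHR-TMAO.

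Other graded members stood on chromosomes 1, 2, 3 and 4. The chromosome 2 gene (53116101 to 53140637, minus strand, 9 exon blocks) ranged from 63.6 to 384 CPM in WKY (median 259), from 53.8 to 213 CPM in SHR-Water (median 101) and from 70.0 to 563 CPM in SHR-TMAO (median 264). SHR-Water replicate 1, at 213 CPM, was above WKY replicates 2 and 3 (63.6 and 188 CPM) and SHR-TMAO replicates 1 and 6 (70.0 and 175 CPM). The chromosome 3 gene (2849984 to 2853272, minus strand, 10 exon blocks) ranged from 43.3 to 155 CPM in WKY (median 60.9), from 10.4 to 38.1 CPM in SHR-Water (median 21.5) and from 22.2 to 99.0 CPM in SHR-TMAO (median 52.4). There every WKY rat was above every SHR-Water rat, and in SHR-TMAO replicate 1 alone was not. The chromosome 4 gene (156752082 to 156785467, plus strand, 4261 exon bases in 17 exon blocks) ranged from 28.9 to 49.5 CPM in WKY (median 42.1), from 8.44 to 23.6 CPM in SHR-Water (median 11.6) and from 15.5 to 50.7 CPM in SHR-TMAO (median 25.8). It is the longest of the members described one by one apart from the chromosome 9 gene that begins at 46090019, below. Genes of 4 kb or longer deviated by 0.18 ± 0.39 in SHR-Water (SD over 6 rats). The part of the length trend in the level of this chromosome 4 gene was not tested. With the trend removed its medians were 43.0, 10.6 and 27.7 CPM. The chromosome 1 gene (221420271 to 221421842, plus strand, 572 exon bases in 5 exon blocks) ranged from 276 to 668 CPM in WKY (median 402), from 58.9 to 457 CPM in SHR-Water (median 168) and from 284 to 608 CPM in SHR-TMAO (median 373). SHR-Water replicate 6, at 457 CPM, was above 4 WKY and 4 SHR-TMAO rats for this gene.

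**Figure D3:**
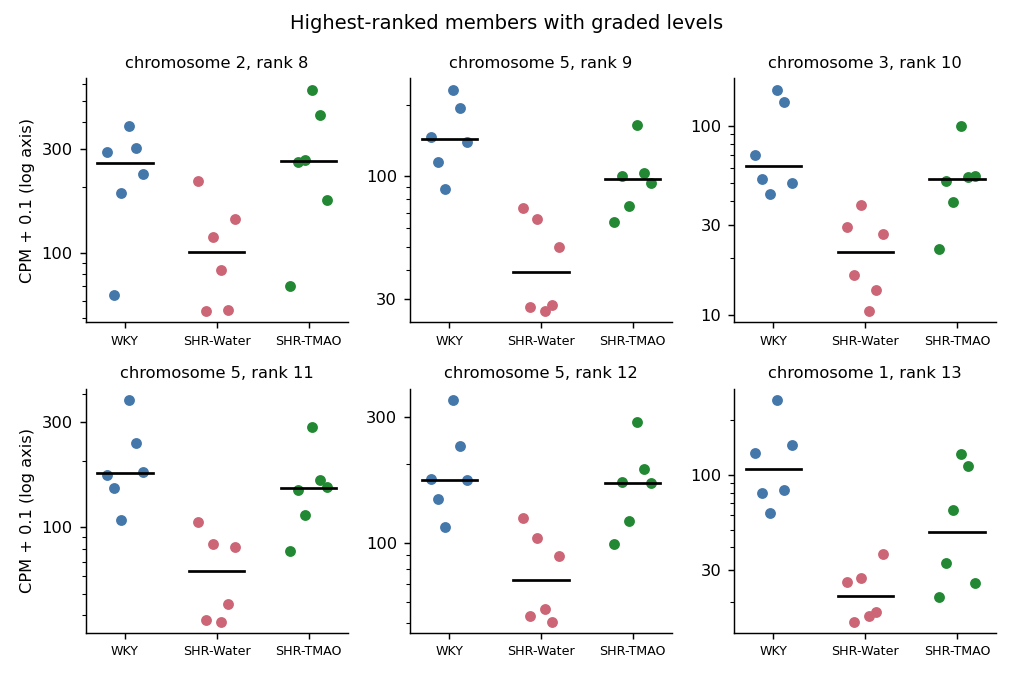
Each panel is 1 of the 6 highest-ranked members with graded levels, with 1 point per rat (CPM + 0.1, log axis) and a bar at the group median. The SHR-Water median is the lowest in each panel, and SHR-TMAO replicate 1 lies within the range of SHR-Water in all 6, in the panels of ranks 8, 12 and 13 together with other SHR-TMAO rats.

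Another pair of short genes lay close together on chromosome 1. The plus-strand gene (168957460 to 168958836, 623 exon bases in 3 exon blocks) ranged from 61.8 to 258 CPM in WKY (median 107), from 15.5 to 36.8 CPM in SHR-Water (median 21.6) and from 21.3 to 130 CPM in SHR-TMAO (median 48.7). The minus-strand gene (168971274 to 168972725, 660 exon bases in 3 exon blocks) ranged from 665 to 2326 CPM in WKY (median 1055), from 176 to 395 CPM in SHR-Water (median 245) and from 208 to 1053 CPM in SHR-TMAO (median 461). In both, every WKY rat was above every SHR-Water rat and SHR-TMAO replicates 3, 4 and 5 were above every SHR-Water rat. SHR-TMAO replicates 1, 2 and 6 were at 21.3, 32.9 and 25.5 CPM for the former and at 208, 324 and 270 CPM for the latter, within the range of SHR-Water. No other background gene lay within 100 kb, where 13 genes are annotated in all.

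A last neighbouring pair stood on chromosome 9, where the plus-strand gene (46086984 to 46090997, 1144 exon bases) and the minus-strand gene (46090019 to 46206605, 4979 exon bases) overlap at their ends. The shorter gene had medians of 636, 396 and 776 CPM in WKY, SHR-Water and SHR-TMAO, and the longer one medians of 329, 171 and 303 CPM. SHR-Water ranged from 259 to 744 CPM for the shorter gene, and 4 of the 6 WKY rats lay within that range. For the longer gene it ranged from 89.6 to 271 CPM, and WKY replicate 2 alone of its group, at 130 CPM, lay within it.

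The members of highest level per length all had under 1 kb of exon, and their smaller ratios lay between 1.62 and 1.88. The highest was a chromosome 1 gene (256806472 to 256813711, minus strand, 941 exon bases in 6 exon blocks), at 1493 ± 303 FPKM in SHR-Water, 3055 ± 579 in WKY and 2278 ± 508 in SHR-TMAO (SD over 6 rats each). Every WKY rat was above every SHR-Water rat for this gene, and 4 of 6 SHR-TMAO rats were. Next was a chromosome 3 gene (143219686 to 143223615, minus strand, 785 exon bases in 3 exon blocks), at 826 ± 277 FPKM in SHR-Water, 2699 ± 1174 in WKY and 1405 ± 499 in SHR-TMAO, with WKY again above every SHR-Water rat and 5 of 6 SHR-TMAO rats above them.

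The others overlapped more. A chromosome 8 gene (132241134 to 132246694, 823 exon bases) was at 2018 ± 727, 1071 ± 395 and 1377 ± 283 FPKM in WKY, SHR-Water and SHR-TMAO. A chromosome 3 gene of 375 exon bases (172563105 to 172566010) was at 1473 ± 611, 941 ± 457 and 1649 ± 604 FPKM. A chromosome 7 gene of 552 exon bases (12282109 to 12283608) was at 1385 ± 492, 939.5 ± 484 and 1431 ± 468 FPKM. In the last of these, SHR-Water replicate 1 at 945 CPM was higher than 5 of the 6 WKY rats. The chromosome 1 gene that begins at 168971274, described above, is the remaining member of the 6 highest. None of these 6 genes met the rule with the length trend removed.

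The members were shorter than the background genes, a property the rule did not name. Their median exon length was 948 bases, where that of the background genes was 2378.5 bases, and their median gene span was 4680 bases beside 20506. They had a median of 4 exon blocks beside 9. A single exon block made up 10 members (7.87%) and 3.94% of the background. Among genes with under 500 exon bases, 34 of 290 were members (11.7%), and from 500 to 1000 bases 37 of 777 (4.76%). From 1 to 2 kb the count was 34 of 2976 (1.14%), from 2 to 4 kb 14 of 4000 (0.35%) and at 4 kb or longer 8 of 2161 (0.37%). The part of the libraries' length trend in this property was not tested.

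Place in the genome set the members apart less. Chromosome 1 held 23 of them (1.73% of its background genes) and chromosome 3 held 15 (1.92%), while the whole background held 1.24%. Chromosomes 11, 13 and 18 held 1 each. Genes that overlap another gene on the opposite strand made up 18 members (14.2%) and 15.7% of the background.

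The scale on which the libraries were compared decided how many genes met the rule. With the mitochondrial genes left out of the library totals, 92 genes met it, of which 81 were among the 127. With TMM-normalized totals, 199 genes met it and 123 of the 127 did. That scaling moved the median log2 difference of the background genes between SHR-Water and SHR-TMAO from 0.11 to 0.01. With each library's length trend removed, 109 genes met it and 58 of the 127 did. Of the 71 members under 1 kb, 11 still met the rule, and of the 22 members of 2 kb or longer all 22 did. All 3 of these scalings kept 49 members.

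With the length trend removed, the median log2 difference of SHR-Water was -0.81 from WKY and -0.70 from SHR-TMAO. On that scale 8 of the 10 wide members met the rule. These medians are of genes chosen for being low in SHR-Water.

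**Figure D4:**
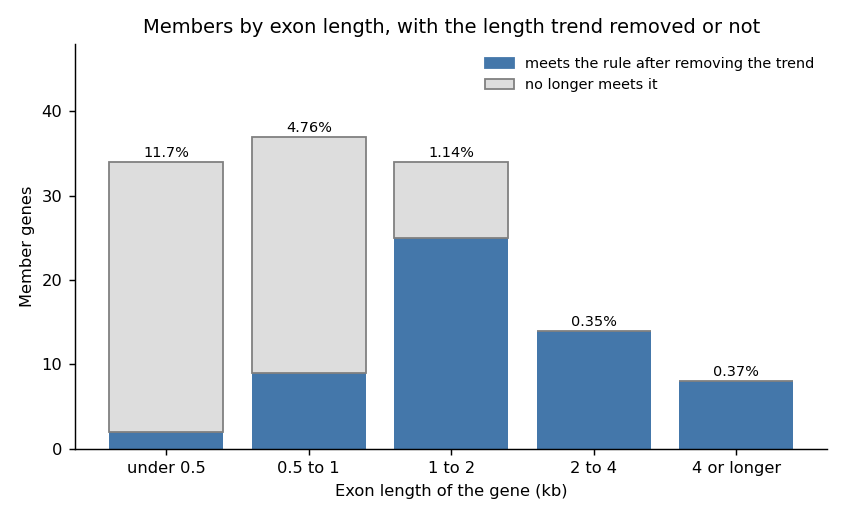
The bars count the members in each class of exon length, in blue those that still met the rule after each library's length trend was removed, and the number on each bar is the share of the background genes of that class that were members. The blue part is 2 of 34 under 0.5 kb, 9 of 37 from 0.5 to 1 kb, 25 of 34 from 1 to 2 kb, and all 22 of the members of 2 kb or longer.

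Around the ratio of 1.6 the values ran on without a gap. Just inside stood the chromosome 9 gene that begins at 46086984 (ratios of 1.61 and 1.96), a chromosome 10 gene (109278712 to 109280863, ratios of 1.86 and 1.61) and a chromosome X gene (124513269 to 124516705, ratios of 1.6005 and 2.48). Just outside stood genes of chromosome 18 (smaller ratio 1.5997), chromosome 1 (1.5984) and chromosome 8 (1.598). The chromosome X gene was wide within every group and its SHR-Water values ran from 0.268 to 55.2 CPM.

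The rule did not set SHR-TMAO against WKY directly, and this contrast was tested with edgeR's quasi-likelihood test over 12833 genes. A call asked for a Benjamini-Hochberg adjusted p-value under 0.05 with a log2 fold change of at least 1. The medians of both groups entered the rule through their ratios to SHR-Water. The rule also left out 3 genes where every SHR-TMAO rat lay above every SHR-Water rat, and set no such condition on WKY. The 2 directions of this contrast were thus not selected alike. All 127 members were tested, and 6 (4.72%) were called, beside 3.62% of all genes tested. All 6 were lower in SHR-TMAO, a call that 2.17% of all genes tested had, and 0 were higher, a call that 1.45% had. Both directions together were close to the share of all genes tested, and the difference by direction was not tested. The 12833 genes tested were those that passed edgeR's filter on low counts, which is not the set of 10204 background genes. At an unadjusted p-value under 0.05 stood 25 members (19.7%), beside 23.4% of all genes tested. Over the 127 members the log2 fold change of SHR-TMAO over WKY had a median of -0.07 and ran from -2.24 to 0.77, with 76 below 0 and 51 above, while the median of all genes tested was -0.02.

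The member of smallest adjusted p-value was ENSRNOG00000011181 (chromosome 2, 105016626 to 105047984, minus strand, 1602 exon bases in 11 exon blocks). Its level ranged from 6.68 to 18.2 CPM in WKY (median 13.3), from 2.01 to 4.65 CPM in SHR-TMAO (median 2.55) and from 0.317 to 5.56 CPM in SHR-Water (median 1.35). All 6 SHR-TMAO rats lay below every WKY rat and within the range of SHR-Water. The log2 fold change of SHR-TMAO over WKY was -2.16 (SE 0.26; edgeR adjusted p = 0.000192).

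The next was ENSRNOG00000053494 (chromosome 15, 34609776 to 34612432, minus strand, 1032 exon bases in 5 exon blocks). It ranged from 43.9 to 104 CPM in WKY (median 74.3), from 13.1 to 35.7 CPM in SHR-TMAO (median 16.6) and from 3.61 to 34.9 CPM in SHR-Water (median 8.40). Again no SHR-TMAO rat reached the lowest WKY rat, and 1 of 6 was above every SHR-Water rat. The log2 fold change was -1.95 (SE 0.26; edgeR adjusted p = 0.000403).

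The other 4 called members were a chromosome 4 gene (170856751 to 170860225, log2 fold change -1.77), a chromosome 12 gene (16170162 to 16172129, -1.32), a chromosome 17 gene (28504623 to 28680362, -1.22) and a chromosome 10 gene (103581384 to 103590607, -1.14). Their edgeR adjusted p-values were 0.0101, 0.0139, 0.0145 and 0.0263 in this order. The chromosome 4 gene had medians of 209, 26.8 and 47.7 CPM in WKY, SHR-Water and SHR-TMAO. The chromosome 12 gene had medians of 605, 166 and 307 CPM, and the chromosome 17 gene 61.7, 13 and 24.3 CPM.

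In all 6 called members every WKY rat was above every SHR-Water rat, and with calls lower than WKY the rule placed the SHR-TMAO median between the other medians. With the length trend removed 3 of the 6 still met the rule: both genes named by identifier and the chromosome 17 gene. The chromosome 10 gene lost its call when WKY replicate 1, 5 or 6 or SHR-TMAO replicate 3 or 6 was left out. Some uncalled members had fold changes as large. The lowest value of all, -2.24, belonged to a member whose adjusted p-value was 0.195.

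**Figure D5:**
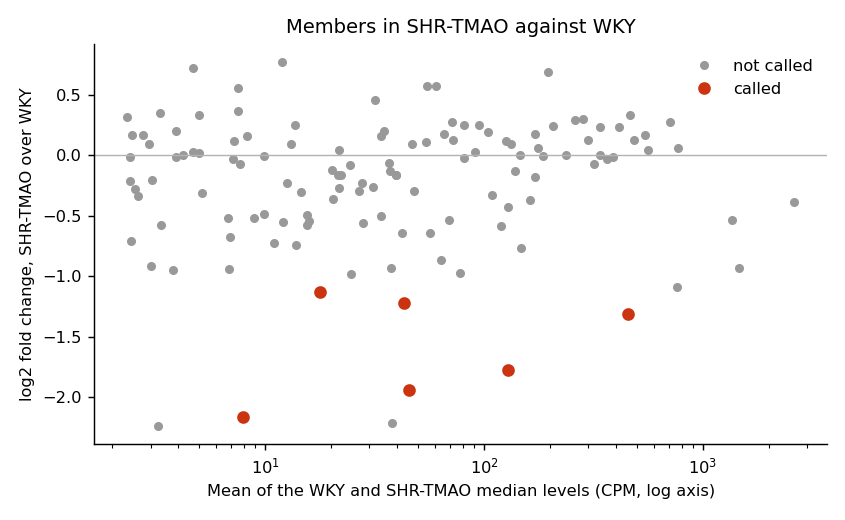
Each point is 1 of the 127 members, plotted by the mean of its WKY and SHR-TMAO median levels (CPM, log axis) and by its log2 fold change of SHR-TMAO over WKY from edgeR. The 6 called members, in red, all lie below -1, and most of the other points lie between -1 and 0.77.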

How the data were processed

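RNA-seq of vWAT from 18 rats (6 per group) was analysed. The authors made libraries with a SMART kit, trimmed and aligned the reads (cutadapt 2.5 and HISAT2 2.1.0, per the labels) and deposited whole-number counts per gene, not normalized. The head of the table names featureCounts 1.6.3, reverse-stranded counting on exons, and the Ensembl release 96 annotation of Rnor_6.0, while the study's methods name GENCODE. CPM and FPKM were computed from these counts with the column total as library size. The members and lists were chosen with earlier results of these data known.

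SHR-TMAO was tested against WKY with edgeR 4.0.16 in R 4.3.3 (TMM, filterByExpr, quasi-likelihood test, Benjamini-Hochberg adjustment over all genes). DESeq2 1.42.0, limma 3.58.1, other scalings and filters, a length offset and leaving out rats were alternatives. The test was checked on simulated data. The length trend of a library was its smoothed deviation from the 18-library mean along exon length, and exon blocks are exons after joining overlaps.

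The genes described were the 12 members of largest smaller ratio with both high medians at 5 CPM or more, the 6 of highest FPKM, the called members, and 3 on each side of the ratio of 1.6. The other wide and neighbouring members and the member ranked 5 were chosen after their values were seen. The rule for named genes asked for a symbol, which this table does not pair with its identifiers. The ranks were therefore used as they stood, and identifiers are given for 2 genes. Gene lists, markers, promoter motifs and sequences were not analysed here. P-values measure the spread between rats, and which rats shared a cage is not given in the sources used here.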

Additional observations from a re-analysis of the deposited data

Results flagged for a closer look

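Of 93 sets of 6 rats examined (27 of the genes described and 4 library measures in 3 groups), 7 held a rat far from the other 5 by Dixon's criterion, and chance flags about 1 in 20. The members chosen after their values were seen and the genes just outside the ratio were not examined. Among those left unexamined was the member ranked 2, with SHR-Water replicate 5 at 9.84 CPM and the other 5 rats between 0.0619 and 0.634 CPM. SHR-Water replicate 2 was at 25.8 CPM for the chromosome 9 gene that begins at 90880614, where the other 5 rats were between 1.22 and 5.08 CPM. For the chromosome 4 gene that begins at 156752082, SHR-Water replicate 3 was at 23.6 CPM (others 8.44 to 13.1) and SHR-TMAO replicate 4 at 50.7 CPM (others 15.5 to 28.5). WKY replicate 4 was at 3889 CPM for the chromosome 3 gene that begins at 143219686 (others 1356 to 2115) and at 2802 CPM for the chromosome 8 gene that begins at 132241134 (others 1098 to 1649). WKY replicate 2 was at 25.4 CPM for the chromosome 10 gene that begins at 109278712 (others 40.8 to 49.7). SHR-TMAO replicate 4 was at 35.7 CPM for ENSRNOG00000053494 (others 13.1 to 18.6). The cause of these values was not tested.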

How the results depend on the processing

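The count of 127 genes moved with the setting: 199 with TMM-normalized totals, 233 with median-of-ratios size factors, 227 with a ratio of 1.5 and 31 with a ratio of 2. With 1 rat left out its lowest value was 94, without SHR-TMAO replicate 4, its highest was 229, without SHR-Water replicate 6, and it was 219 without SHR-Water replicate 1; between 85 and 122 of the 127 members remained. The median log2 difference of SHR-Water moved by less than the spread between rats under the alternatives run. The 6 members called between SHR-TMAO and WKY ran from 5 to 10 with 1 rat left out (10 without WKY replicate 2), and were 6 without both WKY replicate 2 and SHR-TMAO replicate 1, an alternative chosen after seeing the data. The count was also 6 under DESeq2, limma, the other normalization, no filter, all 18 libraries in the fit, the length offset, no mitochondrial genes and a replicate block, and 8 with no fold limit. The correlations of same-numbered WKY and SHR-TMAO rats ran from -0.24 to 0.27, and 1 of 6 matched its own number best. SHR-Water was not part of this comparison. It cannot show whether same-numbered rats shared a cage, day or batch, and no pairing was used in the main test. Low members rest on few counts.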
